A study of Homo sapiens with 8 samples.

Results

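The transforming growth factor β (TGFβ) pathway was examined through 9 of its genes, out of 20033 protein-coding genes annotated on hg38. They were the ligands TGFB1, TGFB2 and TGFB3, the receptors TGFBR1 and TGFBR2, the signal transducers SMAD3 and SMAD7, and the transcriptional co-repressors SKIL and TGIF1. The genes were chosen as a list, and each was given all peaks of acetylated lysine 27 on histone H3 (H3K27ac) in its gene body and up to 50 kb beyond each end, separately in each library. All 9 windows held peaks, with 27 and 29 peaks in DMSO replicates 1 and 2 and 24 and 26 in I-BET151 replicates 1 and 2. Overlapping peaks of the 4 libraries (by 1 bp or more) were joined, which gave 34 regions at the 9 genes out of 15752 in the genome.

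The cells were pancreatic progenitors (PPs) derived from the established human embryonic stem line MEL1, which the study's methods list as MEL1 INS GFP/W, a line with GFP in an insulin allele. Both groups were grown in the same basal medium, in which B27 was joined by bFGF at 10 ng/ml, EGF at 50 ng/ml and 616452 at 10 μM, the last an inhibitor of the TGFβ type I receptor kinase encoded by TGFBR1. The receptor inhibitor was thus present in every sample, controls included. One group received the solvent DMSO and the other 1 μM I-BET151, an inhibitor of the BET bromodomain proteins that bind acetylated lysines, for 7 days. Each group had 2 H3K27ac libraries, each with an input library of chromatin that was not immunoprecipitated. The labels do not say whether the 2 replicates came from separate cultures, so p-values measure only the spread between these libraries.

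TGFβ ligands are secreted in a latent form, and once freed they bring together a type II receptor (TGFBR2) and a type I receptor (TGFBR1), which phosphorylates SMAD2 and SMAD3. These move with SMAD4 to the nucleus, where they bind short DNA motifs together with other factors, while SMAD7 blocks the type I receptor and SKIL and TGIF1 restrain transcription by SMADs. In the developing pancreas the pathway is known for restraining epithelial growth and for its part in the choice of endocrine and mesenchymal fates, and H3K27ac marks the active promoters and enhancers of such genes.

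The 4 peak lists held 12312 to 14248 peaks, made from 7.76 to 9.84 M ChIP reads (M, the SI prefix mega) and 2.67 to 3.04 M input reads as worked out from the lists. The lists covered 9.91 and 9.87 Mb in DMSO and 9.19 and 8.62 Mb in I-BET151, a change of −9.94%. The windows of the 10 pancreatic progenitor markers together had 50624 and 48448 bp under peaks with DMSO against 58520 and 56432 bp with I-BET151. In every library, 9 of these 10 markers had a peak within 3 kb of a start (PTF1A had none), against 0 of 6 endocrine, 1 of 10 mesenchyme, 1 of 6 pluripotency, 1 or 2 of 6 liver and 1 to 3 of 5 intestine markers. Summed over the windows of the 10 mesenchyme markers, 4658 and 5366 bp were covered with DMSO against 3120 and 2574 bp with I-BET151. Of these, COL1A1 made up 1847, 1937, 463 and 410 bp, with no peak within 3 kb of its start in any library. PDGFRB, the mesenchyme marker with a peak near its start, made up 1768, 2432, 1475 and 1406 bp. The same lengths were counted for the intestine marker CDX1. There was no peak at COL1A2, COL3A1, PDGFRA, TWIST1, PRRX1 or LUM. The 6 liver markers had 4532 and 4542 bp with DMSO and 2881 and 1962 bp with I-BET151, with no peak at ALB, AFP, TTR or FGB. The part of other cells in the results below was not tested, and in bulk chromatin fewer cells of a type and less acetylation per cell cannot be told apart.

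To ask where acetylation at the pathway differed with I-BET151, covered length (bp under peaks) was compared gene by gene. It was higher in both I-BET151 libraries than in both DMSO libraries at 3 of the 9 genes (TGFBR2, SKIL and TGIF1), and this pattern held for 12.5% of the 15190 protein-coding genes with a peak in the same kind of window. It was lower in both I-BET151 libraries at 4 of the 9 (TGFB1, TGFB2, TGFB3 and SMAD7), a share equal to the 44.4% of all such genes. At TGFBR1 and SMAD3 the groups overlapped. With 2 libraries a group, an exact permutation test (two-sided, 6 assignments) cannot give a p below 0.33, and every gene with separate groups had this value. The 9 windows together covered 21577 ± 168 bp with DMSO and 19420 ± 328 bp with I-BET151 (SD, n = 2), a difference of −2157 bp or −10.0%, close to the change of the lists as a whole. By role, the change was −27.6% at the ligands, +1.06% at the receptors, −12.0% at SMAD3 and SMAD7 and +9.86% at the co-repressors. Of the 508 bp gained at the co-repressors, 420.5 bp came from 1 weakly called region 43778 bp from the nearest TGIF1 start. Its summit lay in a coding exon of another gene, DLGAP1. Part of the loss at the ligands lay in regions nearest to other genes. When length was taken as a share of each list, TGFB2, TGFBR1 and SMAD3 turned to a higher mean in I-BET151 and the other 6 genes kept their direction.

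**Figure D1:**
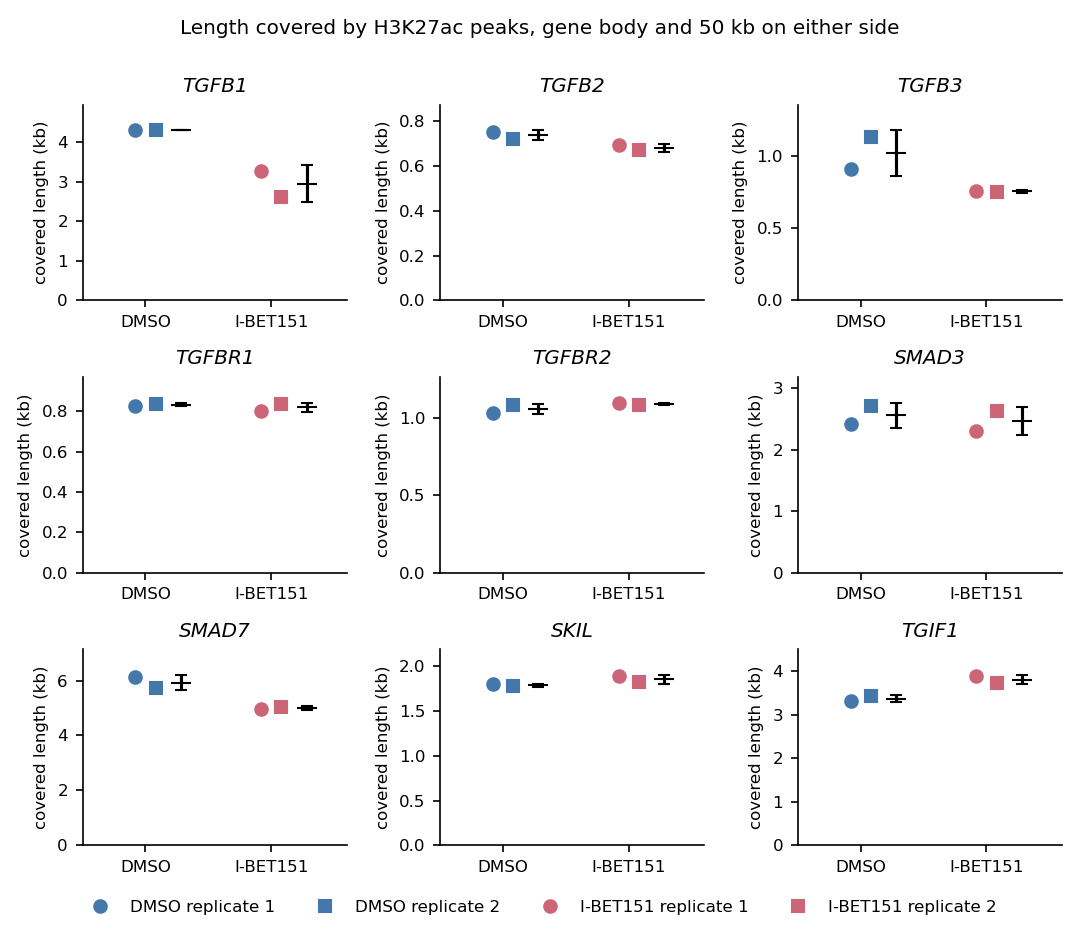
Length covered by H3K27ac peaks (kb, vertical axis from 0) in the gene body and the 50 kb beyond each end, for each gene and library; points are libraries and black marks are the mean ± SD (n = 2). The I-BET151 points of TGFB1, TGFB2, TGFB3 and SMAD7 lie below both DMSO points, those of TGFBR2, SKIL and TGIF1 above, and those of TGFBR1 and SMAD3 overlap with DMSO.

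The plot of covered length shows the libraries behind these counts. The loss of length was widest at TGFB1 and the gain at TGIF1, while the receptors differed least. Where a library lacks a peak, none reached the caller's threshold, and weaker acetylation may still have been present.

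TGFB1 encodes the ligand TGFβ1 (chr19:41301587-41353922, minus strand). Its window had 4297 and 4302 bp of peaks in DMSO replicates 1 and 2 and 3277 and 2621 bp in I-BET151 replicates 1 and 2. The groups did not overlap, and the means of 4299.5 ± 3.54 and 2949 ± 464 bp differed by −1350.5 bp. The single largest part, −675 bp, came from the region at the TGFB1 start itself (chr19:41353356-41354066), which was called in both DMSO lists and in neither I-BET151 list. Its summit lay 296 bp downstream of the start in an untranslated exon. In DMSO it was 685 and 665 bp wide, with 147 ChIP reads at the summit in replicate 1 (Poisson 95% interval 124 to 173, counting error only) and 194 in replicate 2 (168 to 223). Per M ChIP reads these were 18.5 and 19.7, at an enrichment of 4.15-fold and 2.77-fold over the local background. The local input level was 12.8 and 20 reads. The peak stood 70.7% and 86.3% of the way down its list when ordered by p-value, so it was among the weaker calls in both libraries. Because lists hold called peaks only, the reads at this position in I-BET151 were not analysed here.

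The other 8 regions of the TGFB1 window were not nearest to the TGFB1 start, although those nearest to CCDC97 lay within the TGFB1 gene body. Other starts in the window included those of HNRNPUL1, CCDC97, TMEM91, B9D2, BCKDHA and EXOSC5. At HNRNPUL1, 136 bp from a start, the widest region of the window covered 1194, 1152, 1198 and 936 bp in the order DMSO 1, DMSO 2, I-BET151 1 and I-BET151 2. At CCDC97 the region was 574 and 481 bp wide with DMSO and 438 and 442 bp with I-BET151, with 34.3 and 30.7 reads per M against 29.5 and 29.5, so it was narrower and lower in both I-BET151 libraries. A region 4126 bp from a CCDC97 start (chr19:41323658-41324071), singled out after its values were seen, had 15.1 and 16.8 reads per M in DMSO and 10.6 and 12.4 in I-BET151. It was lower in both I-BET151 libraries, with a ratio of 0.723, and so was its fold (5.20 and 4.95 against 3.68 and 2.85). Also singled out by its value, a region in a TGFB1 intron (chr19:41325818-41326255) made up −219 bp of the difference. It was called in DMSO replicate 2 alone, at 99.2% of its list. Another picked by its value, in an untranslated exon of CCDC97 (chr19:41322978-41323302), made up −147 bp. It lacked a call in I-BET151 replicate 2 only. At the shared start of TMEM91 and B9D2 and at that of BCKDHA, the reads per M of the groups overlapped. The difference at TGFB1 was −675 bp when only peaks nearest to its own start were counted, up to 100 kb beyond the gene.

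The sequence upstream of the TGFB1 start within the lost region is shown because this was the only main start among the 9 genes whose peak was called in one group alone. It covers the 144 bases before the transcript (chr19:41353923-41354066, minus strand, hg38), none of them untranslated, and 79.2% of them are G or C. None of the motifs searched, described with the motif counts, occurs in this stretch, which leaves out the summit. The 200 bp around the summit, partly in the untranslated exon and not shown, hold 1 SMAD pentamer.
TGFB1 upstream: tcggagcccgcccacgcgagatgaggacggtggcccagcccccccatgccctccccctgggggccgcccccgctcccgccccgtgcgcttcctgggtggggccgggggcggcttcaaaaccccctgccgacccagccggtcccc

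TGFB2 encodes the ligand TGFβ2 (chr1:218345336-218444619, plus strand). Its window held 1 region, at the start, which covered 752 and 721 bp with DMSO and 693 and 668 bp with I-BET151. Its summit had 18.8 and 18.9 reads per M in DMSO and 16.8 and 16.2 in I-BET151, from 150, 186, 130 and 130 reads. Both I-BET151 libraries were below both DMSO libraries in width and in reads, although the Poisson intervals of the reads per M overlapped between the groups. The difference in length was −56 bp, and it turned to +18.5 bp when each list was scaled to the same covered length.

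TGFB3 encodes the ligand TGFβ3 (chr14:75958097-75983011, minus strand). Its 2 regions together covered 905 and 1130 bp with DMSO and 759 and 747 bp with I-BET151, a difference of −264.5 bp with no overlap (−152 bp without DMSO replicate 2, −174.5 bp by nearest start). The region at the TGFB3 start was 391 and 664 bp wide in DMSO against 350 and 356 bp in I-BET151. Its reads per M were 22.9 and 20.2 in DMSO and 17.1 and 20.9 in I-BET151, so the groups overlapped in height although they did not in width. A neighbouring region 132 bp from a start of IFT43, which begins close by, measured 514 and 466 bp with DMSO and 409 and 391 bp with I-BET151. The 200 bases around the summit of the TGFB3 start region are shown as a ligand promoter called in all libraries (chr14:75982282-75982481, minus strand). This summit lay 387 bp upstream of the main start, which is outside the stretch. The stretch is 79.5% G or C, and its capitals mark the GC-type SMAD motif.
TGFB3 start: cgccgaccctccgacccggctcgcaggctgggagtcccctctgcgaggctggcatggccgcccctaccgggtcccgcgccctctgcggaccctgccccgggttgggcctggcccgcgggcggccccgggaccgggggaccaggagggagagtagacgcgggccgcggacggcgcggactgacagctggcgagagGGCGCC

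The receptor genes each had 1 region, at the start. TGFBR1, the type I receptor kinase that 616452 inhibits (chr9:99104038-99154192, plus strand), was covered over 826 and 837 bp with DMSO and 802 and 836 bp with I-BET151. The groups overlapped, with a difference of −12.5 bp (two-sided exact permutation p = 0.67). Its summit had 36.6 and 32.0 reads per M in DMSO and 35.1 and 39.4 in I-BET151. TGFBR2, the type II receptor (chr3:30606601-30694142, plus strand), was covered over 1032 and 1078 bp with DMSO and 1094 and 1081 bp with I-BET151. The I-BET151 libraries were both higher, but by 32.5 bp on average, the size of the DMSO SD (32.5 bp), and by 9.5 bp without DMSO replicate 1 and 55.5 bp without DMSO replicate 2. Its summit was the tallest of the starts of the 9 genes, with 57.3 and 46.8 reads per M in DMSO and 55.0 and 56.4 in I-BET151, and these overlapped.

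SMAD3 encodes a receptor-activated SMAD (chr15:67063763-67195173, plus strand). Its window covered 2416 and 2704 bp with DMSO and 2308 and 2629 bp with I-BET151, which overlapped (difference −91.5 bp, two-sided exact permutation p = 0.67). Its start and a site within the gene differed in direction. The start region (chr15:67064872-67066937) was the widest at any of the 9 starts, with 2030 and 2016 bp with DMSO and 2045 and 2057 bp with I-BET151. It had 47.4 and 38.3 reads per M in DMSO against 43.3 and 49.5 in I-BET151, which overlapped. The intronic region (chr15:67121094-67121523), 4419 bp from the nearest SMAD3 start, was 386 and 404 bp wide with DMSO and 263 and 307 bp with I-BET151. It had 13.9 and 13.5 reads per M in DMSO and 8.77 and 12.8 in I-BET151, so that both I-BET151 libraries were lower, replicate 2 only slightly. Of the other 2 SMAD3 regions, 1 was called in DMSO replicate 2 alone and 1 in I-BET151 replicate 2 alone.

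SMAD7 encodes the inhibitory SMAD, itself a target of the pathway (chr18:48919853-48950965, minus strand), and had the longest covered length of the 9 genes. Its window covered 6124 and 5724 bp with DMSO and 4948 and 5055 bp with I-BET151. The groups did not overlap, and the means of 5924 ± 283 and 5001.5 ± 75.7 bp differed by −922.5 bp. The difference kept its sign but not its size under other settings, at −224 bp within 10 kb of the gene, −2770.5 bp within 100 kb, −3016.5 bp by nearest start, −586.5 bp at a −log10 q of at least 5, −452.5 bp with equal numbers of peaks and −344.4 bp as a share of list length. Counting by nearest start took peaks up to 100 kb beyond the gene, so it reached outside the 50 kb window. No other protein-coding start lay in the 50 kb window. Of its 11 regions, 6 were called in all libraries, 1 was lost and 4 were called in a single library. Of these 4, the call in DMSO replicate 1 made up −192.5 bp of the difference, from 15 reads at 99.3% of its list. Those in DMSO replicate 2 made up −143.5 and −130.5 bp, at 96.6% and 72.5% of its list. The call in I-BET151 replicate 2 added 128.5 bp, at 88.1% of its list.

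The 4 regions around the main start, with summits between 2160 bp downstream and 1570 bp upstream, differed in covered length by −11, 1, −1 and 28.5 bp between the groups. In reads per M, the region over the first exon (46.5 and 42.5 in DMSO, 44.2 and 46.4 in I-BET151) and that at −780 bp (51.0 and 41.7, 48.2 and 49.0) overlapped. The other two were higher in both I-BET151 libraries, with 31.8 and 31.8 against 32.9 and 35.6 at +2160 bp (ratio 1.08) and 32.8 and 27.4 against 34.2 and 34.1 at −1570 bp (ratio 1.13). At both, the Poisson intervals per M of each DMSO and each I-BET151 library overlapped. The lower covered length thus lay away from the main start. The largest part, −362.5 bp, came from an intergenic region 24713 bp upstream of the start (chr18:48974922-48976659), which was 1723 and 1369 bp wide with DMSO and 1214 and 1153 bp with I-BET151. Its summit had 305 reads (271.7 to 341) and 336 reads (301 to 374) in the DMSO libraries. In the I-BET151 libraries it had 204 reads (177 to 234) and 224 reads (196 to 255). Per M ChIP reads this was 38.3 and 34.1 in DMSO and 26.3 and 27.9 in I-BET151, a ratio of 0.748, with counting intervals that did not overlap between DMSO replicate 1 and either I-BET151 library but met between DMSO replicate 2 and I-BET151 replicate 2. Over all 10174 regions called in every library with reads worked out, the median ratio was 1.00 and the middle 90% ran from 0.681 to 1.41.

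At the same upstream region the fold enrichment went the other way, at 4.35 and 4.54 in DMSO and 5.39 and 5.02 in I-BET151. The local input level was 26 and 21 reads in DMSO and 14 and 14 in I-BET151, so the denominator of the fold differed between the groups as well. A region in the SMAD7 intron, 416 bp from an internal SMAD7 start (chr18:48930397-48930822), had folds that overlapped between the groups although its reads did not. Its fold was 6.91 and 21.2 in DMSO and 20.2 and 39.6 in I-BET151, over input levels of 6, 1.24, 2 and 0.324 reads, while its reads per M were 15.6 and 16.1 in DMSO and 19.6 and 19.3 in I-BET151. It was wider and higher in both I-BET151 libraries, by a ratio of 1.23 in reads, although the Poisson intervals per M of the groups overlapped.

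**Figure D2:**
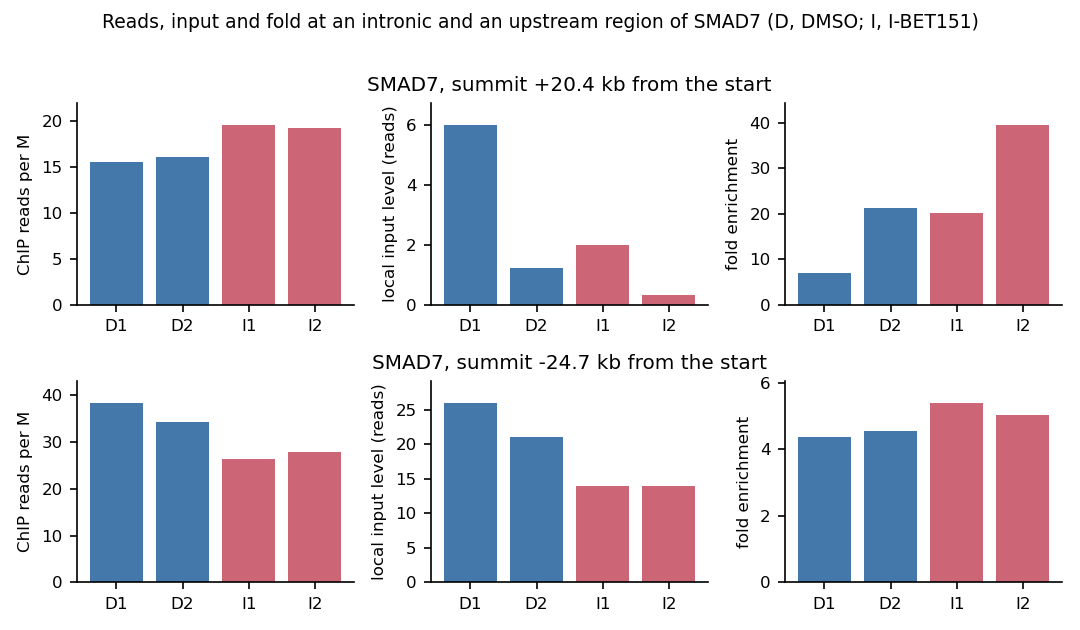
ChIP reads per M ChIP reads, local input level in reads and fold enrichment (vertical axes from 0) at the intronic region (top) and the upstream region (bottom) of SMAD7, one bar per library, with D for DMSO and I for I-BET151. At the upstream region the I-BET151 bars are lower in reads and in input and higher in fold; at the intronic region the fold spans 6.91 to 39.6 while reads per M span 15.6 to 19.6.

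A second internal SMAD7 start, within 11 bp of a summit, had a region that was called in both DMSO lists and in neither I-BET151 list (chr18:48933526-48933853). It was 328 and 268 bp wide, with 73 reads (57.2 to 91.8) and 63 reads (48.4 to 80.6) at the summit, or 9.17 and 6.40 per M. Its enrichment was 7.22-fold and 4.88-fold over an input level of 3 reads in each, and it stood at 74.0% and 91.9% of its lists. The sequences of both regions are shown because they made up the largest parts of the difference at SMAD7; the upstream one was picked after its values were seen. Both are on the minus strand, 200 bases around the summit, at chr18:48933611-48933810 and chr18:48975578-48975777. Capitals mark the GC-type SMAD motif in the lost region and a TEAD motif, on the opposite strand, in the upstream region.
SMAD7 internal start, lost: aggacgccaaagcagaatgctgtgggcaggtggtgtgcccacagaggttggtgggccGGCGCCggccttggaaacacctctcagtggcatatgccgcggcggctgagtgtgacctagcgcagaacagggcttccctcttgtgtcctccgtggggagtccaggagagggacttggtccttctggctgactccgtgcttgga
SMAD7 upstream: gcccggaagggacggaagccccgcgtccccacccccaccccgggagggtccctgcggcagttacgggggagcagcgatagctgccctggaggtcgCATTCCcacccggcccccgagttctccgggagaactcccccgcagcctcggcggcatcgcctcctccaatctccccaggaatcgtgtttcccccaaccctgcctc
The SMAD3 intronic region was likewise picked after its values were seen, as another region away from a start that was narrower and lower in both I-BET151 libraries (chr15:67121197-67121396, plus strand). Its capitals mark an AP-1 motif.
SMAD3 intron: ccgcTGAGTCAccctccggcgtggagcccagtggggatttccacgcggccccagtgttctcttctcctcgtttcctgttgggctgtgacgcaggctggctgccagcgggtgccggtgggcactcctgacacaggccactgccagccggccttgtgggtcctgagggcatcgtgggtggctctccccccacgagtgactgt

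SKIL encodes SnoN, a co-repressor that binds SMADs (chr3:170357342-170396835, plus strand). Its single region, at the start, covered 1801 and 1777 bp with DMSO and 1891 and 1821 bp with I-BET151. Both I-BET151 libraries were wider, by 67 bp on average, but by 32 bp without I-BET151 replicate 1 and 102 bp without I-BET151 replicate 2. The reads per M overlapped, at 39.3 and 35.0 in DMSO and 38.0 and 37.6 in I-BET151. The fold was higher in both I-BET151 libraries (5.02, 5.68, 6.47 and 9.45 in the same order), over input levels of 23, 17, 17 and 9.71 reads.

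TGIF1 encodes a homeodomain co-repressor of SMAD2 and SMAD3 (chr18:3411608-3459978, plus strand). Its window covered 3305 and 3423 bp with DMSO and 3880 and 3730 bp with I-BET151. The groups did not overlap, and the means of 3364 ± 83.4 and 3805 ± 106 bp differed by 441 bp. Of this, 420.5 bp came from 1 gained region (chr18:3498994-3499485), called in both I-BET151 lists and in neither DMSO list. It lay 43778 bp from the nearest TGIF1 start, in a coding exon of DLGAP1, a gene for a postsynaptic scaffold protein. The region was 349 and 492 bp wide, with 54 reads (40.6 to 70.5) and 60 reads (45.8 to 77.2). It was a weak call, at 99.1% and 91.2% of its lists, and 0 regions of the 9 genes were gained when a −log10 q of at least 5 was required. Within 10 kb of TGIF1 the difference was 20.5 bp.

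At the starts of TGIF1 the groups were separate in height but not in width. The region at the main start (chr18:3449189-3451160) covered 1928, 1929, 1930 and 1929 bp. Its summit had 297 reads (264 to 333) and 308 reads (275 to 344) in DMSO and 323 reads (289 to 360) and 332 reads (297 to 370) in I-BET151. Per M ChIP reads these were 37.3 and 31.3 in DMSO and 41.6 and 41.3 in I-BET151, a ratio of 1.21. The region 2038 bp downstream had 44.6 and 39.3 reads per M in DMSO and 50.3 and 50.8 in I-BET151, a ratio of 1.20. The region 75 bp from another TGIF1 start, had 13.4 and 13.1 in DMSO and 13.5 and 15.2 in I-BET151. Both I-BET151 libraries were above both DMSO libraries at all 3, although the Poisson intervals of DMSO replicate 1 and each I-BET151 library overlapped. Stretches of the main start region (chr18:3450490-3450689) and of the gained region (chr18:3499188-3499387) are shown, both on the plus strand, for the gene with the largest gain. Both leave out untranslated bases. The first holds the summit, 388 bp downstream of the main start, but not the start itself. In the second the summit (position 3499192) lies near the first base. Capitals mark the SMAD pentamer, here on the opposite strand.
TGIF1 start: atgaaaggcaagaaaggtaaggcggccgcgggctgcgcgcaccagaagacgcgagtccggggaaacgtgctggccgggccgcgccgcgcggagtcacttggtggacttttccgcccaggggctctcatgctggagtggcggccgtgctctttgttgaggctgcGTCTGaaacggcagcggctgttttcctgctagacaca
TGIF1 window, gained: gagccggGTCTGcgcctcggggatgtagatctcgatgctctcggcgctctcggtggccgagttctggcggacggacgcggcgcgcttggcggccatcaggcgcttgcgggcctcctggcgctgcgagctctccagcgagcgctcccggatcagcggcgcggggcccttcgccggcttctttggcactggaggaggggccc

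**Figure D3:**
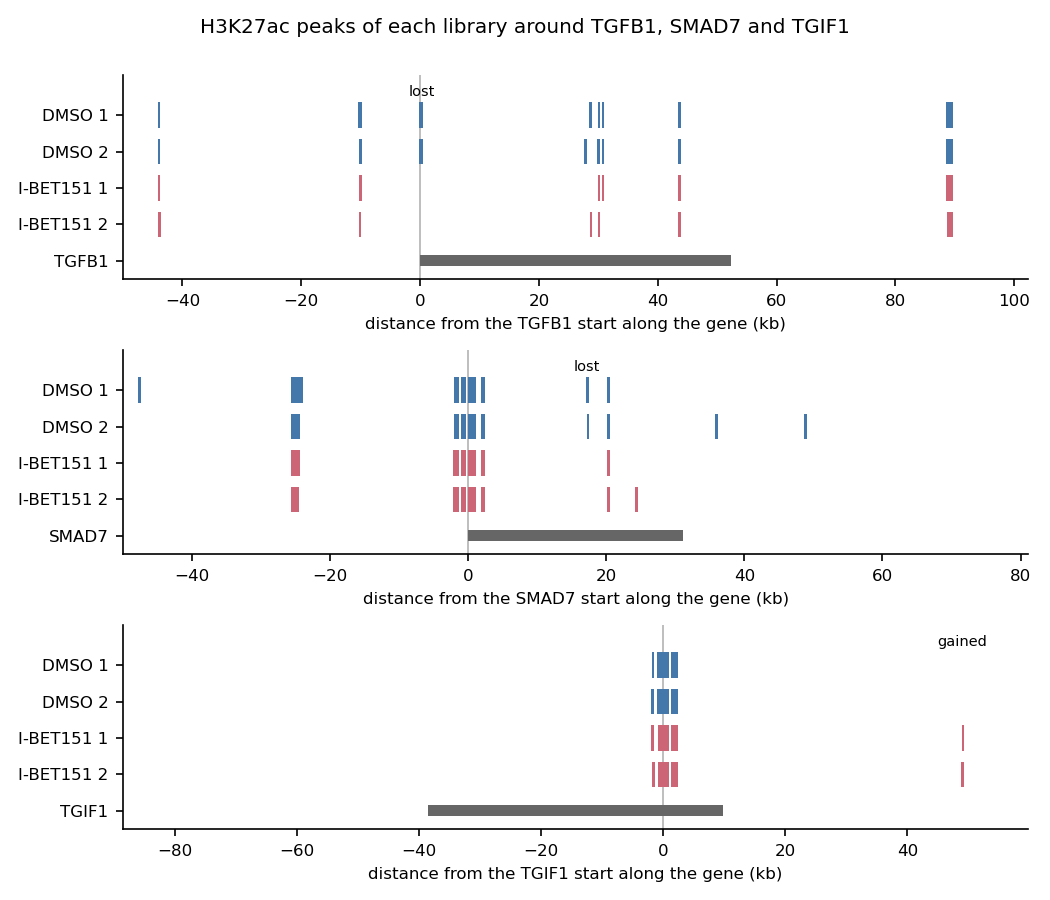
Peaks of each library (blue, DMSO; red, I-BET151) around TGFB1, SMAD7 and TGIF1, by distance in kb from the main start along the gene, with the gene body in grey; peaks narrower than 0.4 kb are drawn at 0.4 kb. The region at the TGFB1 start and an internal SMAD7 region are present in both DMSO rows only, and a region near +49 kb of TGIF1 in both I-BET151 rows only.

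The map of the 3 loci shows where calls differed. Over the 9 genes, 22 of 34 regions were called in all 4 libraries, 1 was gained, 2 were lost and 9 were called in another pattern. Genome-wide, 2.81% of regions were gained and 8.60% were lost, so the single gained and the 2 lost regions (2.94% and 5.88% of 34) were near or below those shares. Of the 22 shared regions, 4 were wider in both I-BET151 libraries, against 16.0% of all shared regions, and 6 were narrower, against 33.3%. The wider regions were the starts of TGFBR2, SMAD3 and SKIL and the SMAD7 intronic region. The narrower regions were the starts of TGFB2 and TGFB3, the regions at IFT43 and CCDC97, the SMAD3 intron and the SMAD7 upstream region. Regions of 1 gene share its locus and are not independent of each other. Leaving out a library loosens the rule, because fewer libraries have to agree, so these counts can then only stay or rise. Shares of all regions at these settings are not given here. With this limit, 3 regions were gained without I-BET151 replicate 1 and 6 were lost without DMSO replicate 1. Without I-BET151 replicate 2 there were 13 wider regions, without DMSO replicate 1 there were 7, and without I-BET151 replicate 1 there were 13 narrower ones.

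The heights at the starts were compared over the 15 start regions called in all libraries, where a start region had its summit within 3 kb of a start of the gene. Among them, 1 counted for TGFB3 at 2915 bp from its start lay 132 bp from a start of IFT43. Both I-BET151 libraries had more reads per M than both DMSO libraries at 6 of 15, against 29.7% of all shared regions. These 6 were 3 regions of SMAD7 and 3 of TGIF1, so they came from 2 loci. At 1 of 15, that of TGFB2, both were lower, against 31.3% of all shared regions. When reads were divided by each library's median over shared regions, 11 of 15 were higher, against 44.0% of all shared regions, and 1 was lower, against 28.9%. DMSO replicate 2, the deepest library by the depth worked out from the lists, was the lowest of the 4 at 10 of the 15 starts and at 45.2% of all shared regions. Leaving out a library loosens the rule here too, so these counts could then only stay or rise. Shares of all shared regions at these settings are not given here. Without DMSO replicate 2 the count of lower starts was 7, without I-BET151 replicate 2 it was 3, and without DMSO replicate 1 the count of higher starts was 12.

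**Figure D4:**
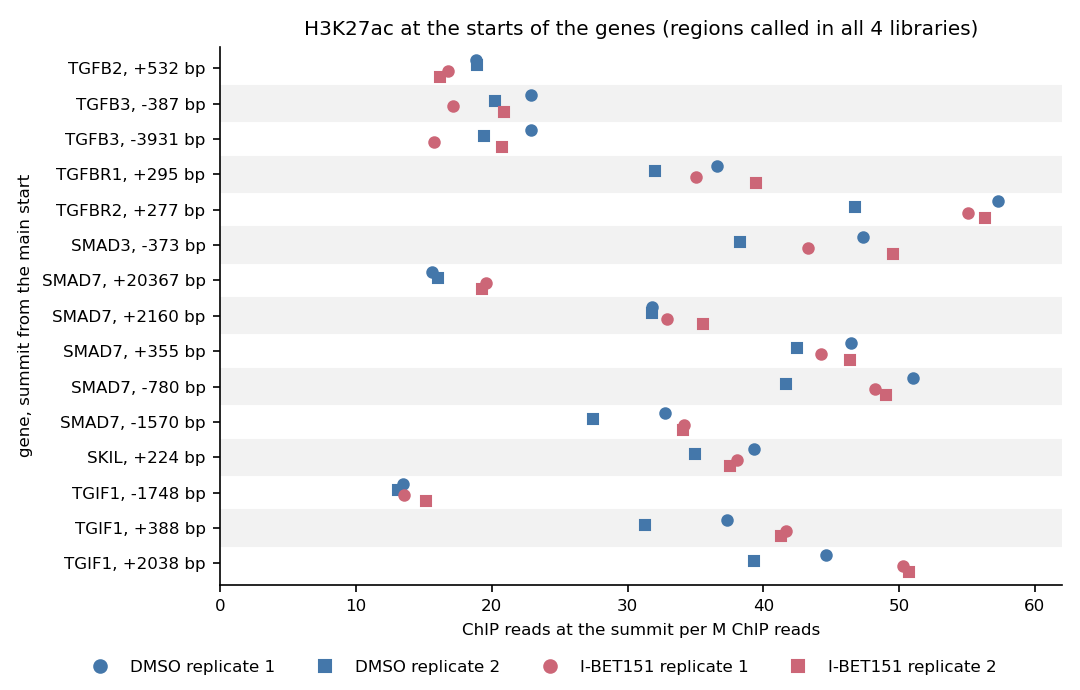
ChIP reads at the summit per M ChIP reads (horizontal axis from 0) at the 15 start regions called in all libraries, labelled by gene and by the distance of the summit from the main start; each point is a library. The points of TGIF1 and of SMAD7 at +20367, +2160 and −1570 bp show both I-BET151 libraries to the right of both DMSO libraries, those of TGFB2 show them to the left, and DMSO replicate 2 is the leftmost point at 10 starts. The TGFB3 region at −3931 bp lies 132 bp from a start of IFT43.

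The plot of start heights also gives the order of the levels. The lowest start regions, at 13.1 to 22.9 reads per M, were those of TGFB2 and TGFB3, the weaker SMAD7 intronic start and the first TGIF1 region. The tallest was that of TGFBR2, at 46.8 to 57.3, and its range overlapped with those of SMAD3, the SMAD7 region at −780 bp and the TGIF1 region at +2038 bp. The SMAD7 region at +355 bp lay just below, at 42.5 to 46.5. TGFBR1 (32.0 to 39.4) and SKIL (35.0 to 39.3) lay between and did not differ beyond the spread of their libraries. Reads at a summit are not divided by a length, since each counts fragments over 1 position.

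Motifs were counted in the 200 bp around the strongest summit of each region, on both strands. The SMAD pentamer CAGAC occurred at 15 of the 34 regions (44.1%), against 34.1% of all 15752 regions. The GC-type motif GGCGCC occurred at 9 (26.5%), against 27%, and the palindrome GTCTAGAC at 0, against 0.0317%. The AP-1 motif TGANTCA occurred at 4 (11.8%), against 2.27%, namely at 2 regions of the TGFB1 window that lay 4126 and 5518 bp from a CCDC97 start, in the SMAD3 intron and at the first TGIF1 region. The forkhead partner motif of FOXH1, AATNCACA, occurred at 1 (2.94%, the SKIL start), against 0.559%, and the TEAD motif GGAATG at 3 (8.82%), against 6.44%. In windows of 144 bp, the length shown for TGFB1, the shares of all regions were 25.6% for the pentamer, 21.3% for the GC-type, 0.0254% for the palindrome, 1.52% for AP-1, 0.368% for FOXH1 and 4.21% for TEAD. No motif contains another on either strand. A match is a description of letters and not evidence of binding.

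Beyond the 9 genes, 49 other genes of the pathway were taken as lists by role, and 42 of them had a peak in their window. Covered length was higher in both I-BET151 libraries at 11 of the 42 and lower at 19, with a median difference of −75 bp. Over all genes with a peak the shares were 12.5% and 44.4%, so the count of lower genes was near the background and that of higher genes was above it. This difference from the background was not tested. The median was −56 bp over the 9 genes and −94 bp over all genes. Among other ligands, 3 of 4 with a peak were higher (NODAL, LEFTY1 and LEFTY2) and 0 were lower. LEFTY1 and LEFTY2 inhibit Nodal signalling, and their windows overlap, so they do not count as independent. No library had a peak within 3 kb of a NODAL or LEFTY2 start. Among genes of latency and activation 2 of 9 were higher and 5 lower, among other receptors 2 and 3 of 7, and among SMAD2, SMAD4 and ZFYVE9, 1 and 0 of 3. Among other inhibitors 0 of 8 were higher and 5 lower, and among targets 3 and 6 of 11. Groups this small were not tested against the shares over all genes.

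**Figure D5:**
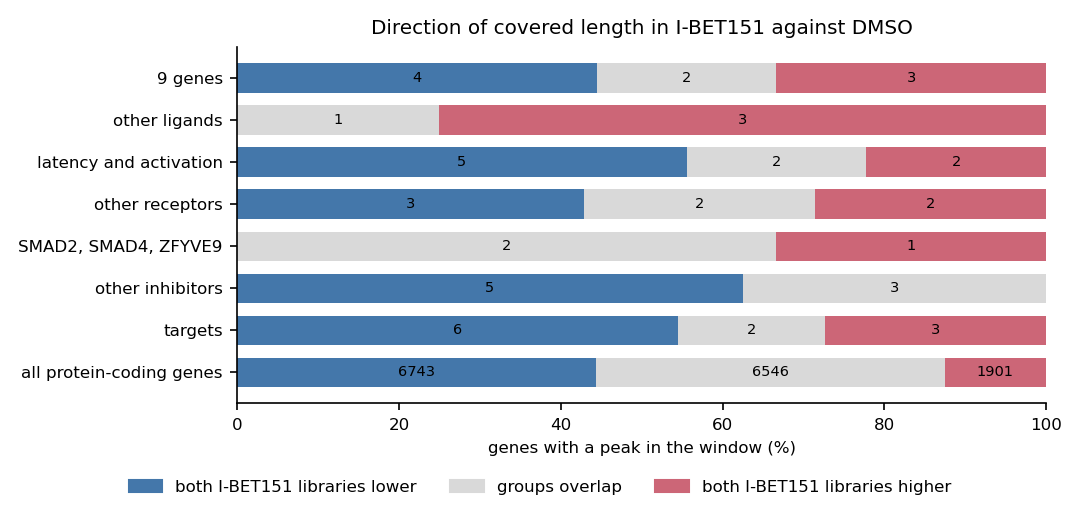
Share of genes with a peak in their window (horizontal axis, %) whose covered length was lower in both I-BET151 libraries (blue), overlapping (grey) or higher in both (red), with the number of genes in each bar. The 9 genes have 4 lower and 3 higher; the inhibitors have 5 lower and 0 higher; all protein-coding genes have 6743 lower and 1901 higher.

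The largest gains in the lists were at LEFTY1 and LEFTY2, neighbouring inhibitors of Nodal signalling whose windows overlap. LEFTY1 covered 2751 and 2202 bp with DMSO and 3138 and 2774 bp with I-BET151, and LEFTY2 covered 1121 and 593 bp with DMSO and 1473 and 1152 bp with I-BET151. They were followed by TSC22D1 (438 bp more on average), a transcriptional target, CDKN2B (394.5 bp more), the cell cycle inhibitor p15, and LTBP1 (223.5 bp more), a binding protein of latent TGFβ. CDKN2B covered 525 and 1079 bp with DMSO against 1201 and 1192 bp with I-BET151, and LTBP1 655 and 935 bp against 1021 and 1016 bp. DMSO replicate 1 was the low library at both, and without it the differences were 117.5 and 83.5 bp. Single libraries also moved LEFTY1 (205 bp without DMSO replicate 2, 297.5 bp without I-BET151 replicate 1 and 754 bp without DMSO replicate 1). They moved LEFTY2 in the same way (191.5, 295 and 719.5 bp), and TSC22D1 (214 bp without I-BET151 replicate 1 and 662 bp without I-BET151 replicate 2). The largest losses were at JUNB, an AP-1 subunit and target of the pathway, with 5333 and 6713 bp with DMSO and 1793 and 2043 bp with I-BET151. SMAD6, the other inhibitory SMAD, covered 7856 and 7485 bp with DMSO and 5923 and 4942 bp with I-BET151. SKI, the co-repressor related to SKIL, covered 11022 and 10912 bp with DMSO and 8898 and 9160 bp with I-BET151, in contrast to SKIL, where both I-BET151 libraries were higher. LTBP3 differed by −1645.5 bp and COL1A1, a collagen gene that is also among the mesenchyme markers, by −1455.5 bp. No library had a peak within 3 kb of a COL1A1 start.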

How the data were processed

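H3K27ac was measured by chromatin immunoprecipitation and sequencing in 4 libraries, 2 per group, each with an input library that was used here only as background within the lists. According to the study's methods and the submitters' processing notes, the authors aligned reads to hg38 with Bowtie2 (2.2.5), removed duplicates and called peaks per library with MACS2 (2.1.2) at default settings, without pooling. The deposited lists give intervals, summits, fold as a ratio over the local background, −log10 p and −log10 q. The deposited score is a multiple of −log10 q and was not used. Duplicate removal limits the height of a peak, and a fixed threshold leaves weak acetylation out of shallower libraries. The lowest −log10 q was 1.30 to 1.36.

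The build was checked by position: the share of summits no more than 3 kb from a protein-coding start was 82.1 to 85.9% (GENCODE release 44), against 17.3 to 18.0% after a shift of 1 Mb. Sequences and coordinates are from hg38, 1-based. ChIP reads at a summit and input levels were solved from the fold (pseudocount 1) and the Poisson p-value, to within 0.0004 scaled reads. Between 99.1 and 99.9% of peaks had a single solution. The solving of reads and input levels was tested on simulated data, which covered neither the tallest summits nor the estimate of depth. Depth used the genome size of 2.7e+09 bp. The height of a region was the reads at its strongest peak per M ChIP reads (M, mega).

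Replicates were taken from the titles. Covered length per gene was compared by exact permutation of the libraries (two-sided), and groups were called separate where both libraries of one lay above both of the other. No test was made over the list. The regions named were those at each start, all gained or lost regions, the widest of each window and those at starts of neighbouring genes, and of the pathway lists the 5 genes with the largest difference in each direction. A few more regions, named as such, were picked after their values were seen. The genes, lists and motifs were chosen with earlier results of these data known. The alternatives were other windows, peak thresholds, merging and scaling, leaving out each library, and a replicate block. Counting by nearest start took peaks up to 100 kb beyond each end of a gene. Python 3.11.15, NumPy 2.4.6, SciPy 1.17.1 and Matplotlib 3.10.9 were used.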

Additional observations from a re-analysis of the deposited data

How the results depend on the processing

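Of the single genes, TGFB1, TGFB3, TGFBR2, SMAD7, SKIL and TGIF1 kept their direction in all 11 alternatives, TGFB2 in 10, TGFBR1 in 9 and SMAD3 in 7. The differences of those 6 genes ran from −3015.5 to −675 bp at TGFB1, −377 to −152 bp at TGFB3, 9.5 to 145.9 bp at TGFBR2, −3016.5 to −224 bp at SMAD7, 32 to 259.2 bp at SKIL and 20.5 to 819.7 bp at TGIF1. As a share of list length, the difference became +18.5 bp at TGFB2, +75.5 bp at TGFBR1, +179.9 bp at SMAD3 and +0.378 bp over the 9 genes, and 2 genes were lower; the lists of I-BET151 were shorter, which is what this scaling divides by. SMAD3 was also +50.5 bp within 10 kb. Leaving out each library, TGFBR1 ran from −29.5 to 4.5 bp (above 0 without I-BET151 replicate 1) and SMAD3 from −252 to 69 bp (52.5 without DMSO replicate 2 and 69 without I-BET151 replicate 1). The summed difference ran from −2389 to −1925 bp without each library, and was −1623.5 bp within 10 kb, −6136 bp within 100 kb, −3485.5 bp for regions nearest to a start of the 9 genes and −1422.5 bp for equal numbers of top-ranked peaks. The cause of these changes was not tested.

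Gained regions numbered 0 within 10 kb, 0 at a −log10 q of at least 5 and 0 with equal numbers of peaks, and 1 to 3 without each library (3 without I-BET151 replicate 1). Lost regions numbered 6 within 100 kb, 5 by nearest start, 1 with equal numbers of peaks, and 2 to 6 without each library (6 without DMSO replicate 1). Without each library, wider regions numbered 4 to 13 (7 without DMSO replicate 1, 13 without I-BET151 replicate 2) and narrower ones 7 to 13 (13 without I-BET151 replicate 1). Counts without a library, of regions and of starts, can only stay or rise, because fewer libraries have to agree. Both other measures of start height were chosen after seeing the data: the fold gave 6 higher and 1 lower, and scaling reads by the median of shared regions gave 11 higher. The 6 by fold were not the same regions as the 6 by reads per M. They were the starts of TGFBR1, SMAD3 and SKIL, SMAD7 at +2160 bp, and TGIF1 at its main start and at +2038 bp. Folds were 5.38 and 5.34 in DMSO against 6.32 and 7.61 in I-BET151 at TGFBR1. At SMAD3 they were 7.63 and 8.61 against 13.3 and 13.3. Reads per M of both overlapped. By reads per M, without each library, 6 to 12 were higher (12 without DMSO replicate 1) and 1 to 7 lower (7 without DMSO replicate 2, 3 without I-BET151 replicate 2).

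With a replicate block the summed difference was −2157 bp, the same as without it. Replicate differences of the groups correlated at 0.110 across 15190 genes, and the labels do not tie same-numbered libraries, so they were not taken as pairs. Depth limited the comparison to called peaks, and with 2 libraries a group the smallest possible p was 0.33.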
